A study of Mus musculus with 8 samples.

Results

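Cholesterol synthesis, sterol transport and the control of both by SREBP were followed through 28 genes in mouse embryonic fibroblasts (MEFs) that lacked FIH, VHL or both proteins. The genes were chosen by function, with earlier results of these data known. They were 18 enzymes that carry acetyl units to cholesterol, 5 genes of the SREBP control machinery, and 5 genes of sterol uptake, transport and export. Of these 28, 27 had a probe set of their own and all 27 were above the filter on low signals, out of 11564 genes tested among 18194 with a probe set. Acat2, the thiolase of the first step, had no probe set of its own in the annotation used and was not analysed here.

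MEFs of 4 genotypes were compared, with 2 arrays each: wild type cells, cells null for VHL, cells null for FIH, and cells null for both, called VHL/FIH null. All were immortalized with large T antigen and grown at 21% oxygen in high glucose DMEM with 10% FBS and antibiotics. The null cells were made by infecting FIHdf, VHLdf and VHLdf/FIHdf MEFs with an adenovirus carrying Cre recombinase, so each null group came from a floxed line of its own, and genotype and line cannot be told apart. The study asked how loss of each protein, or of both, changed expression across the genome. VHL is the substrate receptor of the ubiquitin ligase that marks hydroxylated HIF alpha subunits for destruction, and FIH (gene Hif1an) is an asparagine hydroxylase that limits the transcriptional activity of HIF alpha. The replicates are called biological in the labels without word of separate embryos or cultures, so p-values cover the spread between the arrays and nothing wider.

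Cells build cholesterol from acetyl-CoA through mevalonate, farnesyl diphosphate, squalene and lanosterol. SREBP transcription factors wait in the endoplasmic reticulum membrane bound to the escort protein Scap, and Insig proteins hold that complex there while sterols are plentiful. When sterols fall, Scap carries SREBP to the Golgi, proteases free its active fragment, and that fragment switches on the enzymes of synthesis together with Srebf2 and Insig1 themselves. Excess sterol works in the other direction through LXR receptors, whose targets include the exporter Abca1 and the ubiquitin ligase gene Mylip.

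Each array was an Affymetrix Mouse Genome chip, whose values are linear MAS5 signals. All arrays had a trimmed mean signal of 2500.01 and medians from 281.5 to 307.1, and the small number of arrays limits the precision. Correlations between arrays were 0.968 to 0.971 within groups (4 pairs) and 0.954 to 0.969 between groups (24 pairs). The labels could be set against both targets, and Hif1an separated the groups less clearly than Vhl. Vhl signal was 3294 ± 36.0 (SD, n = 2) in wild type and 3479.7 ± 76.5 in FIH null cells, against 731 ± 33.2 in VHL null and 979 ± 116 in VHL/FIH null cells. The log2 difference of Hif1an from wild type was -0.75 in FIH null (limma adjusted p 0.00271), -1.15 in VHL/FIH null (adjusted p 2.04e-05) and also -0.49 in VHL null cells (adjusted p 0.00597). Whether these probe sets lie in the deleted parts of the genes was not tested. Of 9 fibroblast markers 8 were tested, and Lum was below the signal filter on every array. Bulk RNA was measured, so fewer cells of a type and less RNA per cell cannot be told apart.

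Loss of VHL went with lower expression of nearly the whole pathway. In VHL null against wild type cells 23 of 27 genes fell and 2 rose, where 28.4% of all tested genes fell and 15.5% rose. All 17 measured synthesis enzymes fell, with a median log2 difference of -0.96, against -0.10 over all tested genes. In VHL/FIH null against wild type cells 20 of the 27 fell and 2 rose, against 23.6% and 17.8% of all tested genes, and 16 of the 17 enzymes fell with a median of -1.17 against -0.05. Both comparisons share the wild type arrays. The 2 genes that rose in each were Insig2 and Abca1. Read by every tested probe set, 42 of 50 were lower in VHL null cells (22.1% of all tested probe sets) and 38 of 50 in VHL/FIH null cells (20% of all).

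A pair of groups that share no array gave a second reading of VHL loss. In VHL/FIH null against FIH null cells 20 of the 27 genes fell, where 25% of all tested genes fell, and 2 rose, where 20.6% did. All 20 were among the 23 that fell in VHL null against wild type cells, which is 100% of the first list and 87.0% of the other. Over all tested genes 1709 fell in both comparisons, 59.2% and 52.1% of the corresponding lists. Both comparisons draw on a single estimate of each gene's spread. The genes of the 23 that did not pass here were Ebp, Mylip and Npc2. Tm7sf2 did not pass without FIH null replicate 2 or without VHL/FIH null replicate 1 (adjusted p 0.13 and 0.0871). Median differences of the 27 genes were -0.73 for VHL loss with FIH present and -0.90 with FIH lost.

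**Figure D1:**
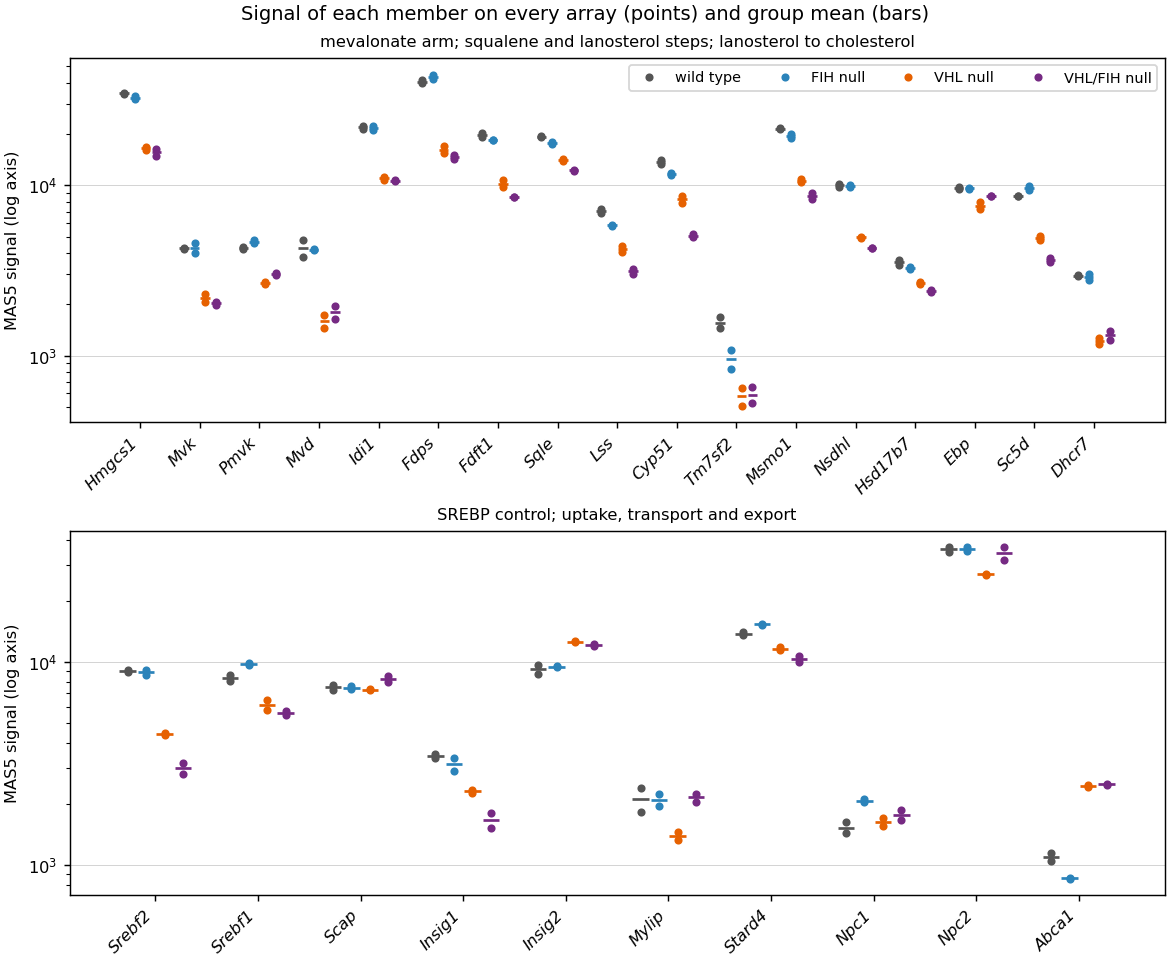
MAS5 signal (log axis) of the 27 measured genes on each array, in the order of the pathway; points are single arrays and bars are means of the 2 arrays of a group. Hmgcs1 stands at 34451 to 35052 on the wild type arrays and at 14836 to 16856 on the 4 arrays without VHL, and Abca1 lies the other way round.

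The mevalonate arm, which turns acetyl units into the isoprenoid building blocks, fell throughout in cells without VHL. All 6 measured enzymes were lower than wild type in VHL null and in VHL/FIH null cells, with medians of -1.04 and -1.11. Hmgcs1 read 35052 and 34451 on the wild type arrays and 33375 and 31997 on the FIH null arrays, against 16117 and 16856 on the VHL null and 14836 and 16384 on the VHL/FIH null arrays. Hmgcs1 makes HMG-CoA, the substrate of the pathway's main control step. Every array without VHL lay below every array with it, and the log2 difference from wild type was -1.08 (SE 0.06) in VHL null and -1.16 (SE 0.06) in VHL/FIH null cells, with limma adjusted p of 3.53e-07 and 1.09e-07. Fdps read 41429 and 39931 on the wild type arrays and 44720.4 and 42123 on the FIH null arrays, against 17047 and 15444 on the VHL null and 14999 and 14241 on the VHL/FIH null arrays. Fdps, farnesyl diphosphate synthase, fell 2.51-fold in VHL null and 2.78-fold in VHL/FIH null cells (limma adjusted p 1.02e-07 and 2.38e-08), with no overlap between arrays with and without VHL.

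Mvd read 4749 and 3808 on the wild type arrays and 4173 and 4209 on the FIH null arrays, against 1739.9 and 1449 on the VHL null and 1956 and 1643 on the VHL/FIH null arrays. Mvd, the decarboxylase that closes the mevalonate sequence, had a wide spread between the wild type arrays, and still fell by 1.41 and 1.24 on the log2 scale in VHL null and VHL/FIH null cells (limma adjusted p 1.28e-05 and 2.34e-05). Idi1 read 21516 and 22326 on the wild type arrays and 22185 and 21123 on the FIH null arrays, against 10791 and 11178 on the VHL null and 10714 and 10613 on the VHL/FIH null arrays. Idi1, which isomerizes isopentenyl diphosphate, showed narrow spreads, and its arrays with and without VHL did not overlap. It fell 1.99-fold and 2.05-fold. Mvk and Pmvk, the kinases between these steps, fell by 0.96 and 0.69 in VHL null cells and by 1.07 and 0.52 in VHL/FIH null cells. The shallower fall of the pair was that of Pmvk, from 4313 ± 81.5 (SD, n = 2) in wild type to 2671 ± 47.4 in VHL null and 3012 ± 63.1 in VHL/FIH null cells.

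The squalene and lanosterol steps commit carbon to sterols, and their 3 enzymes fell in both groups without VHL. Fdft1, squalene synthase, went from 19721 ± 783 in wild type to 10236 ± 637 in VHL null and 8550.1 ± 57.1 in VHL/FIH null cells (SD, n = 2). Sqle read 19185 and 19534 on the wild type arrays and 17443 and 17992 on the FIH null arrays, against 13889 and 14199 on the VHL null and 12339 and 12159.5 on the VHL/FIH null arrays. Sqle, squalene epoxidase, fell by 0.46 and 0.66 on the log2 scale, the smallest falls of the 3 in each group. Lss, which closes the ring to lanosterol, fell by 0.74 in VHL null and 1.17 in VHL/FIH null cells. The probe sets used for Hmgcs1, Lss and Hsd17b7 carry the maker's mark for possible cross-hybridization. The other tested probe set of Lss, without that mark, fell less in both groups. It went from 2134 ± 63.2 in wild type to 1688 ± 177 in VHL null and 1204 ± 114 in VHL/FIH null cells (SD, n = 2).

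From lanosterol to cholesterol, all 8 enzymes were lower in VHL null and 7 of 8 in VHL/FIH null cells. Cyp51 read 13311 and 14071 on the wild type arrays and 11888 and 11476 on the FIH null arrays, against 8644 and 7916 on the VHL null and 4965 and 5165 on the VHL/FIH null arrays. Cyp51 is the demethylase that acts first on lanosterol, and its 4 groups did not overlap on this probe set, its brightest. Msmo1 and Nsdhl, which take part in removing further methyl groups, each fell by 1.01 in VHL null cells, and in VHL/FIH null cells Msmo1 fell by 1.31 and Nsdhl fell by 1.22. Dhcr7, which reduces the last double bond of its branch, went from 2955 ± 40.0 in wild type to 1216 ± 63.5 in VHL null and 1316 ± 104 in VHL/FIH null cells. Its changes were -1.27 (SE 0.10) and -1.16 (SE 0.10) on the log2 scale.

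Tm7sf2 read 1678 and 1451 on the wild type arrays and 833 and 1074 on the FIH null arrays, against 647 and 507 on the VHL null and 527 and 652 on the VHL/FIH null arrays. Tm7sf2, a sterol reductase, fell 2.68-fold and 2.62-fold in the groups without VHL, with the widest standard error of the enzymes (SE 0.19). Hsd17b7, a ketoreductase, fell in both, at -0.39 in VHL null and -0.55 in VHL/FIH null cells on the log2 scale. Its other tested probe sets, which carry no mark for cross-hybridization, were further down, at -0.62 and -0.83 in VHL null and -1.04 and -0.84 in VHL/FIH null cells. Ebp, the sterol isomerase, fell by 0.34 in VHL null cells (limma adjusted p 0.00149), and its difference in VHL/FIH null cells was -0.16 (adjusted p 0.0694), which did not pass.

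**Figure D2:**
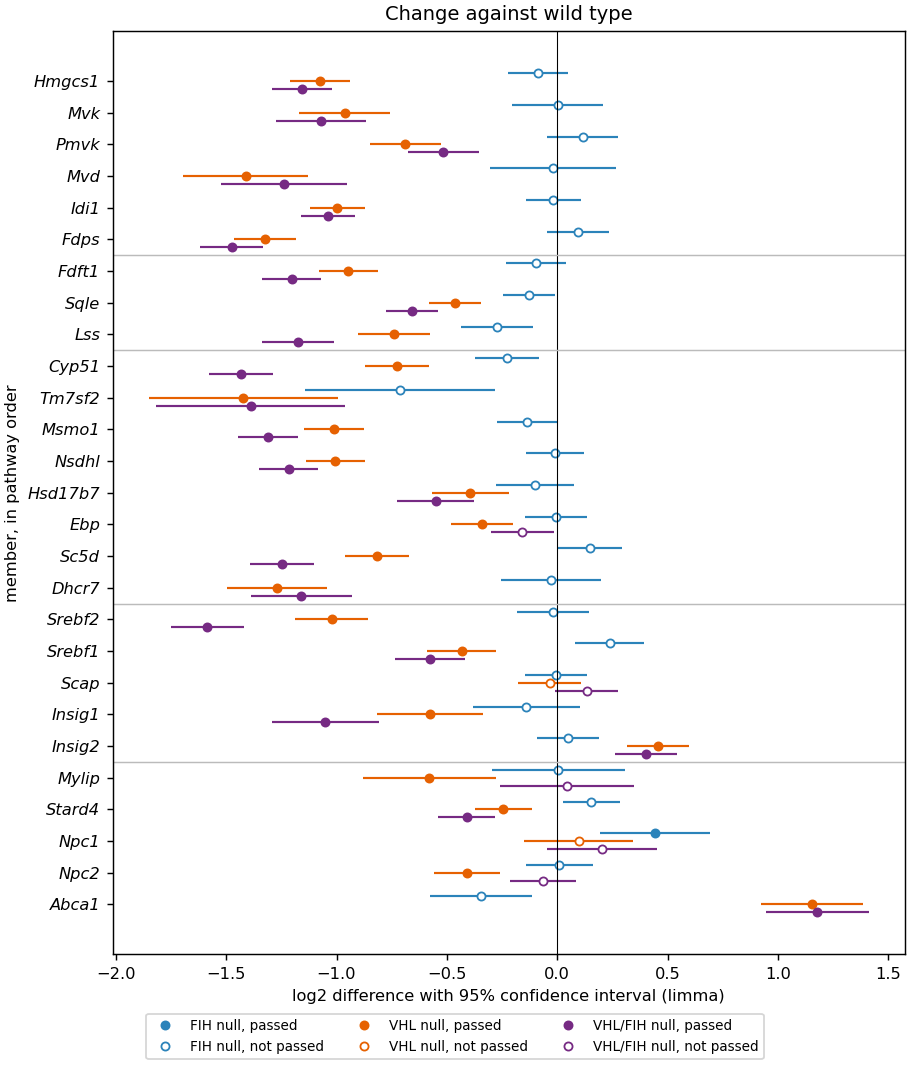
Log2 difference from wild type of each measured gene in cells without FIH, without VHL and without both, with 95% confidence intervals from limma; filled points passed at an adjusted p of 0.05 and open points did not. The VHL null points of the 17 enzymes all lie below zero and are filled, while 1 of the 27 FIH null points, that of Npc1, is filled.

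The regulators split. Srebf2 read 9111 and 8888 on the wild type arrays and 9091 and 8675 on the FIH null arrays, against 4481 and 4362 on the VHL null and 3183 and 2806 on the VHL/FIH null arrays. Srebf2, the gene of the SREBP that mainly drives sterol synthesis, had log2 differences of -1.02 (SE 0.07) in VHL null and -1.58 (SE 0.07) in VHL/FIH null cells, a fall in both (limma adjusted p 2.40e-06 and 4.40e-08). Its other tested probe set fell in both groups, at -1.29 and -1.80 on the log2 scale. Insig1 read 3535 and 3364 on the wild type arrays and 2895 and 3375 on the FIH null arrays, against 2348 and 2267 on the VHL null and 1514 and 1811 on the VHL/FIH null arrays. Insig1, a retention factor that is itself an SREBP target, fell by 0.58 and 1.05 on the log2 scale (adjusted p 0.00161 and 2.35e-05), and no array of the VHL null or VHL/FIH null group overlapped wild type. Srebf1, more closely tied to fatty acid synthesis, fell by 0.43 and 0.58.

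Insig2 read 8692 and 9686 on the wild type arrays and 9513 and 9479 on the FIH null arrays, against 12626 and 12558 on the VHL null and 12311 and 11962 on the VHL/FIH null arrays. Insig2, the other retention factor, rose 1.37-fold in VHL null and 1.32-fold in VHL/FIH null cells (limma adjusted p 0.000225 and 0.000468), so the Insig genes changed in opposite directions. All 3 of its tested probe sets rose in both groups. This rise depended on the scaling: with arrays scaled to the hybridization controls, which lowers the median of all genes by 0.38 in VHL null cells, its log2 differences were 0.08 (adjusted p 0.359) and -0.12 (adjusted p 0.165). Scap, the escort, did not pass in any comparison of all arrays on the deposited scale with the median filter. Its log2 differences were -0.04 (interval -0.18 to 0.11) in VHL null and 0.13 (interval -0.01 to 0.27) in VHL/FIH null cells. Its calls also depended on the setting. Scaled to the hybridization controls it passed as lower, at -0.41 in VHL null, -0.39 in VHL/FIH null and -0.26 in FIH null cells (limma adjusted p 0.000293, 0.000349 and 0.0141). With median centring it passed as higher in VHL/FIH null cells, at 0.20 (0.0353). With the 75th percentile filter it was higher by 0.17 in VHL/FIH null than VHL null cells (0.0482).

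Among the genes of uptake, transport and export, Abca1 rose and Stard4 fell in both groups without VHL, and Mylip and Npc2 fell in VHL null cells. Abca1 read 1049 and 1141 on the wild type arrays and 857 and 857 on the FIH null arrays, against 2430.3 and 2473 on the VHL null and 2503 and 2489 on the VHL/FIH null arrays. Abca1, which loads cellular cholesterol onto apolipoproteins, was higher on all 4 arrays without VHL than on any other array, 2.22-fold in VHL null and 2.26-fold in VHL/FIH null cells against wild type (limma adjusted p 1.27e-05 and 6.86e-06). A second, dimmer probe set of Abca1 had log2 differences of 0.82 (adjusted p over probe sets 0.0567) and 0.71 (0.0932), which did not pass. Stard4, a carrier of cholesterol between membranes, fell by 0.25 and 0.41. Its other probe sets had log2 differences of -0.04 (adjusted p 0.71) and -0.40 (adjusted p 0.0024) in VHL null cells, so its probe sets differ in call there. With each array centred on its median, its log2 difference in VHL null cells was -0.16 (adjusted p 0.073), which did not pass.

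Mylip read 1814 and 2391 on the wild type arrays and 2241 and 1948 on the FIH null arrays, against 1331 and 1449 on the VHL null and 2050.4 and 2248 on the VHL/FIH null arrays. Mylip, the LXR target that marks lipoprotein receptors for breakdown, fell by 0.58 in VHL null cells (limma adjusted p 0.00573), and in VHL/FIH null cells its difference from wild type was 0.04 (adjusted p 0.829). Without wild type replicate 2 the VHL null difference was -0.38 (adjusted p 0.0607) and did not pass. Npc2 read 36699 and 35059 on the wild type arrays and 36753 and 35459.9 on the FIH null arrays, against 27100.4 and 26938 on the VHL null and 36789 and 31925 on the VHL/FIH null arrays. Npc2, the soluble lysosomal cholesterol carrier, fell by 0.41 in VHL null cells (adjusted p 0.000704) and differed by -0.07 (adjusted p 0.471) in VHL/FIH null cells. Npc1, the lysosomal membrane protein to which it hands cholesterol, did not pass in either group, at 0.10 and 0.20.

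Marker genes of fibroblasts and of other cell types also differed in signal between groups. The fibroblast list (8 of 9 tested) summed to 223001 to 231446 in wild type and 259771 to 278162 in FIH null cells, against 232629 to 237687 in VHL null and 232692 to 265948 in VHL/FIH null cells. Within it genes went in both directions. Pdgfra went from 1010.3 ± 329.5 in wild type to 1820 ± 289 in VHL null and 175 ± 20.8 in VHL/FIH null cells (SD, n = 2). Dcn went from 610.1 ± 31.5 to 1056 ± 102 in VHL null, 113 ± 49.4 in FIH null and 130.2 ± 117 in VHL/FIH null cells. Pdgfra and Dcn encode a growth factor receptor and a matrix proteoglycan of fibroblasts. The collagen gene Col3a1 went from 11741 ± 375 to 21262 ± 478 in VHL null and 26067 ± 388 in VHL/FIH null cells. Col1a1 went from 37055 ± 84.3 to 52395 ± 1870 in FIH null cells. The epithelial list (3 of 6 tested, Cdh1 and Krt14 below the filter on every array) summed to 2622 to 3086 in wild type, 1549 to 1664 in VHL null and 1346 to 1605 in VHL/FIH null cells, with Krt18 alone at 1375 ± 26.4, 657 ± 36.8 and 340.4 ± 59.5. In VHL/FIH null cells a single gene carried most of the higher sum of the adipocyte list, and likewise of the skeletal muscle list. Fabp4 was at 367 ± 51.3 in wild type and 1911 ± 342 in VHL/FIH null cells, while Adipoq, Cidec and Lep were below the filter on every array. Acta1 was at 428 ± 52.8 and 1511 ± 76.7, while Myod1 and Myog were below the filter on every array. The whole adipocyte list (4 of 6 genes with a probe set, 1 tested) summed to 436 to 499.6 in wild type and 1817 to 2259 in VHL/FIH null cells, and the muscle list (3 of 5 tested) to 1025 to 1096 and 2062 to 2511. The part of these differences in the pathway's values was not tested. No hepatocyte marker passed the filter.

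Promoters were looked at because the enzymes and Srebf2 fell together. RefSeq (GRCm38.p6) lists a promoter, 250 bases before to 50 after the start, for 23 of the 28 genes. SREBP acts at sterol regulatory elements with the partner factors NF-Y and Sp1, so the SRE core TCACCCCAC, the NF-Y box CCAAT and the GC box GGGCGG were searched on both strands, counting overlapping matches. CCAAT was present in a listed promoter of 20 of the 23 genes, including all 19 of those that fell in VHL null cells and have one, and in 43.4% of 9382 tested genes with a listed promoter. Genes with several listed starts had more sequence to match. The stretches below hold the 180 bases before the start, in lower case with CCAAT or its complement ATTGG and the SRE core in capitals. Hmgcs1, Mvk and Idi1 stand for the mevalonate arm, Srebf2 for the regulators that fell, and Insig2 and Abca1 for the pair that rose.
Hmgcs1: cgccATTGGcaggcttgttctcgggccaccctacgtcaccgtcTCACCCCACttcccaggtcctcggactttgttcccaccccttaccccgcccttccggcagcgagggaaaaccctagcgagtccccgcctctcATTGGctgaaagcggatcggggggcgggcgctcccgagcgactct
Mvk: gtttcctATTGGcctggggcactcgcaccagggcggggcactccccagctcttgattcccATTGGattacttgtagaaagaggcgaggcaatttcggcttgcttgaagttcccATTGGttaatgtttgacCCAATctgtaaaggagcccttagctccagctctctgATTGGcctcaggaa
Idi1: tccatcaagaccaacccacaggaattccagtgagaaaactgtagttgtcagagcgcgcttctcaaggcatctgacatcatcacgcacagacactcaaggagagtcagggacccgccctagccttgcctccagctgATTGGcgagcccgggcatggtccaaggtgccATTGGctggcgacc
Srebf2: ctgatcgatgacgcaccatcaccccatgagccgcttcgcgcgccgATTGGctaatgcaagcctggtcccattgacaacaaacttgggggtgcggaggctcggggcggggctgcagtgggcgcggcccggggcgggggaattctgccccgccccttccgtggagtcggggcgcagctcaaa
Insig2: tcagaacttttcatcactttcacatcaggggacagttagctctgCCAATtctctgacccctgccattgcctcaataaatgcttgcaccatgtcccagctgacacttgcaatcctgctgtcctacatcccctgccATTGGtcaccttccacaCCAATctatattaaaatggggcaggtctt
Abca1: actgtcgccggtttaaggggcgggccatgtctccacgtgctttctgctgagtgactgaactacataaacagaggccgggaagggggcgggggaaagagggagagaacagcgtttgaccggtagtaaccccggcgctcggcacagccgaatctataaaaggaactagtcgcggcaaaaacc

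These stretches lie at chr13:119690171-119690350 on the plus strand, chr5:114444089-114444268 on the plus strand and chr13:8885426-8885605 on the plus strand for the enzymes. Those of the others lie at chr15:82147089-82147268 on the plus strand, chr1:121332590-121332769 on the minus strand and chr4:53159896-53160075 on the minus strand. Hmgcs1 held 2 CCAAT boxes and the SRE core, Mvk 5 boxes, Idi1 2 and Srebf2 1. The Insig2 stretch, from 1 of 3 listed starts and the one with most boxes, held 3, and that of Abca1 none. The SRE core in this exact form was found in Hmgcs1 alone of the 23 genes, and in 0.703% of the tested genes. With any base in place of its middle C (TCACNCCAC) it was again found in Hmgcs1 alone, and in 1.37% of the tested genes. GGGCGG was found in 22 of the 23, against 70.1%. The hypoxia response cores ACGTG and GCGTG were found in 6 and 15 of the 23, against 29.8% and 56.8%. Matches of letters describe these windows only.

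**Figure D3:**
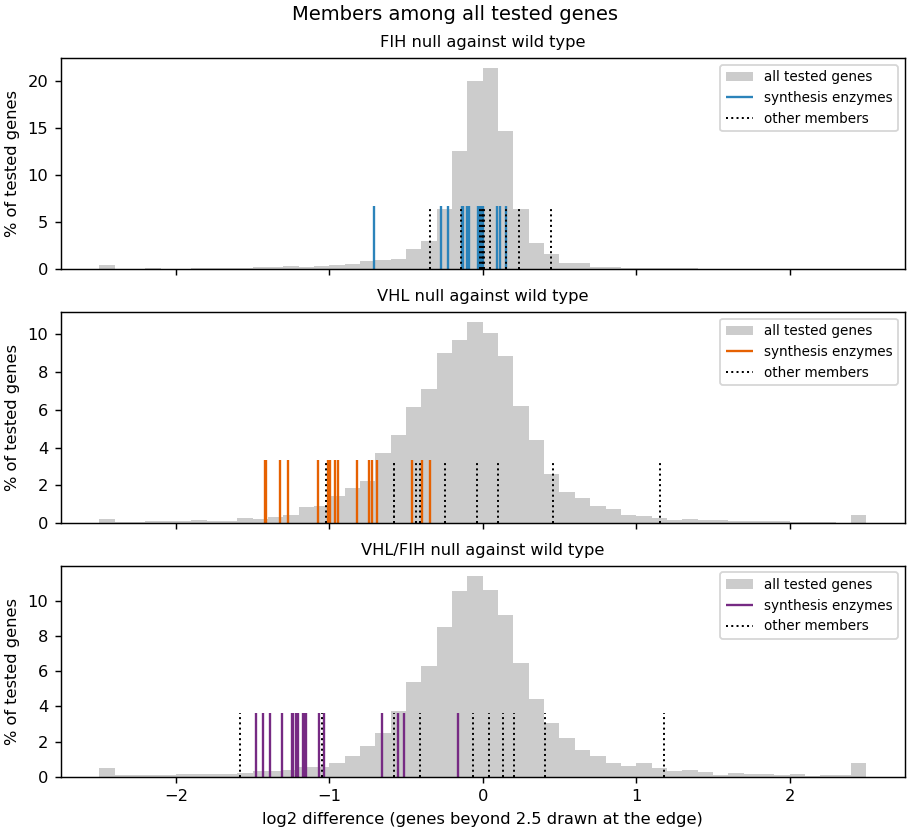
Log2 differences from wild type over the 11564 tested genes (grey, percent of genes per bin of 0.1) with the 17 synthesis enzymes (coloured lines) and the 10 other genes of the pathway (dotted lines), with FIH null cells in the top panel, VHL null in the middle and VHL/FIH null at the bottom. The enzymes have a median of -0.03 in FIH null cells, with Tm7sf2 the lowest at -0.71, and medians of -0.96 and -1.17 in the lower panels.

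FIH loss in cells that also lacked VHL went with lower signals in part of the pathway. In VHL/FIH null against VHL null cells 10 of 27 genes were lower and 3 higher, where 15.4% and 22.3% of all tested genes were. With arrays scaled to the hybridization controls 16 were lower, where 26% of all tested genes were. None of the 6 enzymes of the mevalonate arm passed in either direction by limma (at an unadjusted p under 0.05, 1 was higher and 1 lower), with differences from -0.15 to 0.17. The intervals were -0.22 to 0.06 for Hmgcs1 and -0.11 to 0.46 for Mvd. This depended on the setting: with scaling to the hybridization controls Hmgcs1, Mvk, Idi1 and Fdps passed as lower (adjusted p 0.0233, 0.0494, 0.0355 and 0.00524). Fdps also passed with the replicate number as a block (0.0298) and without VHL null replicate 2 (0.0490), and another Hmgcs1 probe set had -0.23 (adjusted p over probe sets 0.0287). All 3 enzymes of the squalene and lanosterol steps fell, Fdft1 by 0.26, Sqle by 0.20 and Lss by 0.43, and without VHL null replicate 2 the first 2 did not pass (adjusted p 0.0661 and 0.0722).

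Beyond lanosterol 4 of 8 enzymes fell and 1 was higher. Cyp51 fell by 0.71 (SE 0.07, limma adjusted p 1.38e-05), from 8279.8 ± 514 in VHL null to 5065 ± 141 in VHL/FIH null cells (SD, n = 2). That is its brightest probe set, and the second brightest went from 4348 ± 148 to 2931 ± 201. The dimmest tested one read 344 and 374 on the VHL null and 353 and 309 on the VHL/FIH null arrays, which overlapped. Msmo1 fell by 0.30 and Nsdhl by 0.21, the latter not passing when either VHL null array was left out (adjusted p 0.0808 and 0.0551). Ebp was higher by 0.18 (adjusted p 0.0434), and did not pass in 7 of 8 fits that left out 1 array (adjusted p 0.0285 to 0.271). Srebf2 fell by 0.56 (adjusted p 0.000178) and Insig1 by 0.47 (adjusted p 0.00598), so both were lowest in the cells without either protein. Mylip and Npc2 were higher by 0.62 and 0.34 (adjusted p 0.00449 and 0.00246), and their VHL/FIH null arrays overlapped the wild type ones. Stard4 fell by 0.16 (adjusted p 0.0472), a call lost in 7 of 8 such fits (adjusted p 0.0261 to 0.198). The difference for Abca1 was 0.03 (interval -0.21 to 0.26).

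Sc5d, the desaturase that acts late in the pathway, had probe sets that went opposite ways. Sc5d read 8712 and 8669 on the wild type arrays and 9921 and 9369.6 on the FIH null arrays, against 5040.0 and 4807 on the VHL null and 3571 and 3744 on the VHL/FIH null arrays. That is its brightest probe set, on which the 4 groups did not overlap and VHL/FIH null cells were lower than VHL null by 0.43 (limma adjusted p 0.000484). A second probe set had means of 3337 ± 131 in wild type and 3548 ± 170.5 in FIH null cells, against 1630.5 ± 0.424 in VHL null and 2631 ± 81.5 in VHL/FIH null cells (SD, n = 2). On it VHL/FIH null cells were higher than VHL null by 0.68 (adjusted p over probe sets 0.000219). The dimmest one read -0.05 (adjusted p 0.891). All 3 were lower than wild type in both groups without VHL. With the mean of the probe sets in place of the brightest, the difference between VHL/FIH null and VHL null cells was 0.069 (adjusted p 0.615).

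**Figure D4:**
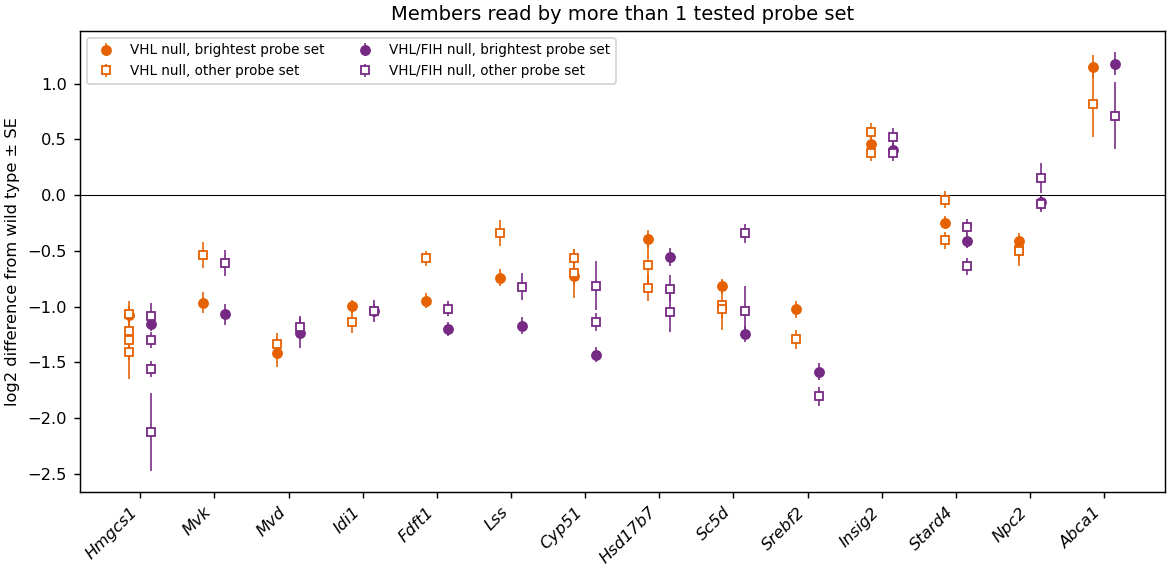
Log2 difference from wild type (± SE) in VHL null and VHL/FIH null cells of the 14 genes read by more than 1 tested probe set, with the brightest probe set filled and the others open. Most probe sets of a gene lie on the same side of zero; for Sc5d an open VHL/FIH null point stands apart at -0.34, and for Npc2 one lies above zero.

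Whether the difference that went with FIH loss was the same with and without VHL was tested by the interaction. This is the VHL/FIH null minus VHL null difference less the FIH null minus wild type difference. It passed for 7 of 27 genes (25.9%), near the 21.9% of all tested genes. Of the 7, 5 were negative and 2 positive, where 8.47% of all tested genes were negative and 13.4% positive. The split moved with the scaling: 8 were negative and 0 positive with median centring (13.4% and 9.05% of all tested genes), and 3 and 4 with scaling to the hybridization controls (4.57% and 19.3%). Cyp51 had -0.48 (adjusted p 0.00428) by limma, Srebf2 -0.54 (adjusted p 0.0042) and Sc5d -0.58 (adjusted p 0.00144). For Srebf2 the difference that went with FIH loss was -0.02 with VHL present and -0.56 without it. These 3 passed in all 8 fits that left out 1 array. With the mean of the probe sets Cyp51 had -0.14 (adjusted p 0.339) and Sc5d -0.070 (adjusted p 0.753), and the second Srebf2 probe set had -0.36 (adjusted p over probe sets 0.0744).

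The other 4 interactions were less settled. Srebf1 had -0.38 (adjusted p 0.0212), with signals of 8599 and 8058 in wild type and 9906 and 9715 in FIH null cells, against 6513 and 5823 in VHL null and 5707 and 5454 in VHL/FIH null cells. Stard4 had -0.32 (adjusted p 0.0192), Mylip 0.62 (adjusted p 0.0425) and Npc2 0.33 (adjusted p 0.03) by limma. When 1 array at a time was left out, the calls were lost in 5 of 8 fits for Srebf1, 4 for Stard4, 7 for Mylip and 7 for Npc2. Tm7sf2 had the largest value, 0.75 (interval 0.14 to 1.35), and did not pass (adjusted p 0.0767).

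**Figure D5:**
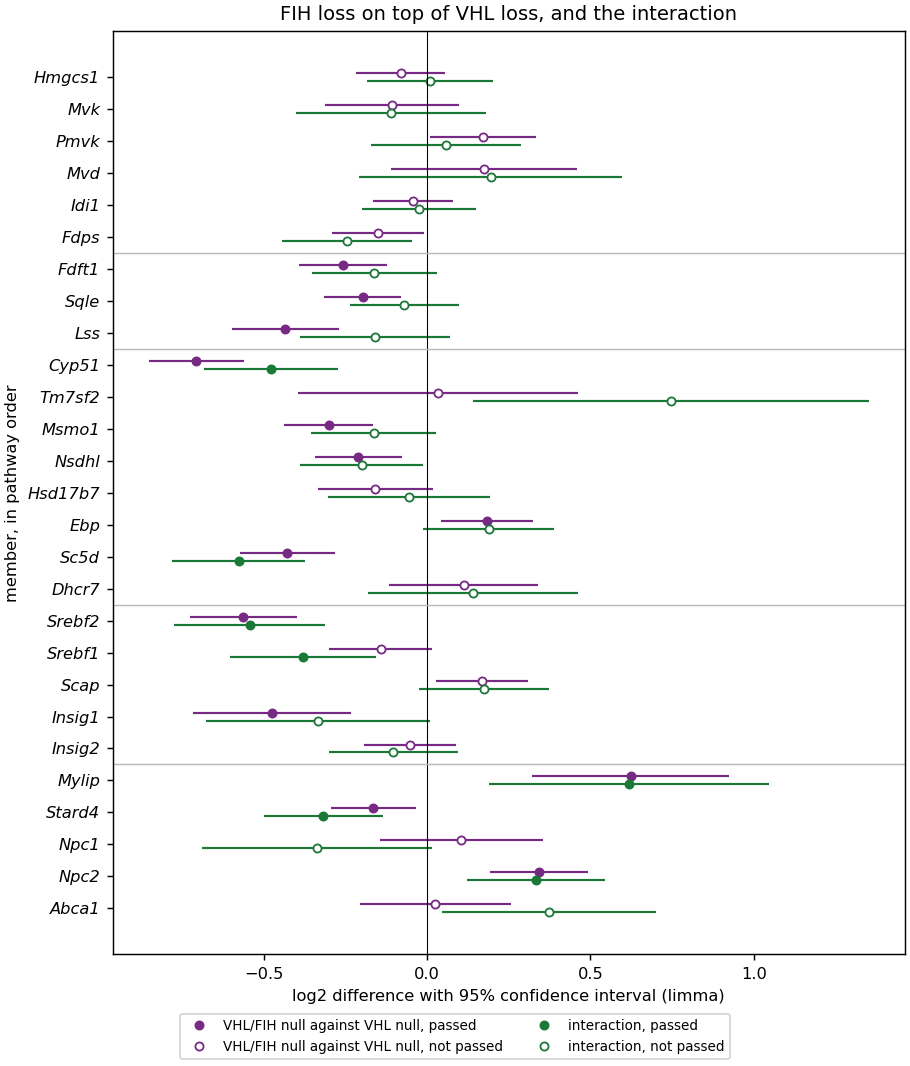
Log2 difference between VHL/FIH null and VHL null cells (purple) and the interaction of VHL and FIH loss (green) for each measured gene in pathway order, with 95% confidence intervals from limma; filled points passed at an adjusted p of 0.05. The purple points of the mevalonate arm are all open, and those from Fdft1 to Cyp51 are filled and below zero, down to -0.71.

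With FIH loss alone few differences in the pathway were called. In FIH null against wild type cells 1 of 27 genes rose and none fell by limma, where 1.96% of all tested genes rose and 4.59% fell. At an unadjusted p under 0.05, 4 were higher and 6 lower, where 1095 and 1331 of the 11564 tested genes were. The median difference of the 27 was -0.02, against -0.0025 over all tested genes. Npc1 read 1432 and 1622 on the wild type arrays and 2045 and 2108 on the FIH null arrays, against 1555 and 1708 on the VHL null and 1657 and 1856 on the VHL/FIH null arrays. Npc1 rose by 0.44 on the log2 scale (adjusted p 0.0412), the FIH null arrays lying above every other array. It did not pass in 6 of 8 fits that left out 1 array (adjusted p 0.0334 to 0.224), among them each fit without a wild type, FIH null or VHL null array. Of the 17 enzymes 13 had negative differences, where 5856 of the 11564 tested genes did. Lss, Cyp51 and Tm7sf2 did not pass, at -0.27 (adjusted p 0.0518), -0.23 (adjusted p 0.0673) and -0.71 (adjusted p 0.0543). Abca1, at -0.35 (adjusted p 0.0809), and Srebf1, at 0.24 (adjusted p 0.0804), did not pass either. A second probe set of Insig2 was higher by 0.32 (adjusted p over probe sets 0.0196), while its brightest read 0.05. The scaling set these counts: with arrays scaled to the hybridization controls, which lowers the median of all genes by 0.26, 19 of the 27 fell and 0 rose, where 43.5% of all tested genes fell and 0.605% rose.

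Ranked by group mean, VHL/FIH null cells held the lowest signal for 16 of 27 genes and VHL null cells for 8, and wild type cells held the highest for 15 and FIH null cells for 8. The same ranking was not counted over all tested genes, so no background share stands beside these counts. For the 6 enzymes of the mevalonate arm, neither the difference between the bottom 2 groups nor that between the top 2 passed by limma on the deposited scale. This holds for their brightest probe sets, with all arrays and no replicate block. Exceptions between VHL/FIH null and VHL null cells, for Fdps and for another Hmgcs1 probe set, are given above. With scaling to the hybridization controls 4 of the 6 enzymes passed between VHL/FIH null and VHL null cells, as given above. Under that scaling Hmgcs1, Mvk and Idi1 also passed between FIH null and wild type cells (adjusted p 0.00296, 0.0419 and 0.00581).

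Genes around the pathway were counted from lists of related functions. In SREBP processing and turnover, 12 of 14 genes were tested, and 3 rose and 3 fell in VHL null cells, where 15.5% and 28.4% of all tested genes did. Rnf145, a ligase gene of sterol control, and Pgrmc1, a sterol-binding membrane protein gene, rose by 0.68 and 0.59 (limma adjusted p 6.29e-06 and 3.45e-05), and Sec24d, of the COPII coat, by 0.35. Usp20, Mbtps1 (the first SREBP protease) and Erlin2 fell by 0.74, 0.31 and 0.28. In VHL/FIH null cells 4 rose and 2 fell, where 17.8% and 23.6% of all tested genes did, with Pgrmc1 at 0.75 and Rnf145 at 0.67. In FIH null cells none of the 12 passed by limma in either direction (1 higher and 0 lower at an unadjusted p under 0.05). Of 13 tested enzymes in other isoprenoid and sterol branches, 2 rose and 4 fell in VHL null cells, and 1 rose and 4 fell in VHL/FIH null cells, near the same shares of all tested genes (15.5% and 28.4%, then 17.8% and 23.6%). Coq2, of ubiquinone synthesis, fell by 0.76 and 0.81, and Fntb, a farnesyltransferase subunit, by 0.83 and 0.84.

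In the wider list of sterol export, esterification, transport and lipoprotein uptake, 18 of 20 genes were tested, and 3 rose and 6 fell in VHL null cells, near the 15.5% and 28.4% of all tested genes. Vldlr, the very low density lipoprotein receptor, went from 1491 ± 69.4 in wild type to 20896 ± 869.7 in VHL null and 16371 ± 703 in VHL/FIH null cells (SD, n = 2), a rise of 3.79 and 3.44 on the log2 scale (limma adjusted p 8.92e-10 and 1.50e-09). Lrp1, another lipoprotein receptor, rose by 0.49 in FIH null cells (adjusted p 0.00448) and fell by 0.72 in VHL null cells (adjusted p 6.08e-05). Stard3, a late endosomal cholesterol protein, fell by 0.54 and 0.76 in the groups without VHL. Scarb2, a lysosomal membrane protein, fell by 1.18 in VHL null cells and rose by 0.26 in VHL/FIH null cells. With both proteins lost 3 of the 18 rose and 4 fell, near the 17.8% and 23.6% of all. Of 16 fatty acid genes driven by SREBP, 14 fell and 0 rose by limma in VHL null cells (0 also rose at an unadjusted p under 0.05), where 28.4% of all tested genes fell and 15.5% rose. With both proteins lost 12 fell and 1 rose, where 23.6% and 17.8% of all tested genes did. Fads2 and Fads1, the desaturases of polyunsaturated fatty acids, fell in both groups, at -1.21 and -1.04 in VHL null and -1.71 and -1.49 in VHL/FIH null cells on the log2 scale.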

How the data were processed

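Total RNA of 8 MEF samples was measured on Affymetrix arrays. The deposited values are linear intensity signals of probe sets, and the submitters' processing notes name MAS5, its version not given in the sources used here. They were used without further scaling, as log2 of the signal plus 16. Probe sets above 291.1, the median signal, on at least 2 arrays were kept (24523 of 45101 rows, 64 of them controls). GEO's platform annotation gave 34958 probe sets a single symbol, 932 several and 9147 none, and the first kind was used, with 1 probe set per gene, its brightest by mean log2 signal. A mean per group was fitted by limma (version 3.58.1, R version 4.3.3; lmFit, eBayes with a variance trend, prior degrees of freedom 7.04, residual 4), and p-values were two-sided and adjusted by the Benjamini-Hochberg method over 11564 genes within each of 6 comparisons; the same fit over probe sets was used where probe sets disagreed. The fit was tested on simulated data for VHL null against wild type, in which 100 genes were changed by each of 2 amounts. It recovered 53 of 100 genes changed by 0.5 on the log2 scale and 91 of 100 changed by 1, with 3 false calls. A difference near 0.5 or smaller that did not pass may therefore be one that was missed.

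Every gene of the pathway was named or counted, and of each related list up to 3 passing genes per direction with the smallest p were eligible. These genes and lists were chosen with earlier results of these data known. Alternatives changed the pseudocount, filter, scaling, variance trend, samples fitted, probe set rule and replicate block, or left out 1 array. Replicate numbers did not pair the samples: deviations correlated between groups at 0.00869 to 0.0393 (6 pairs).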

Additional observations from a re-analysis of the deposited data

Results flagged for a closer look

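For 7 of 27 genes of the pathway (25.9%, near the 21.9% of all tested genes) the interaction of VHL and FIH loss passed by limma, adjusted over all tested genes. For these 7, read by their brightest probe sets on the deposited scale, the difference that went with FIH loss was called unlike with and without VHL. The split of their signs moved with the scaling, as given above, and genotype and line cannot be told apart. The calls of Srebf1, Stard4, Mylip and Npc2 were lost in 5, 4, 7 and 7 of 8 fits that left out 1 array. Cyp51 had an interaction of -0.48 on the log2 scale, FIH loss going with a difference of -0.23 with VHL present and -0.71 without it (adjusted p 0.00428). With the mean of its probe sets the value was -0.14 (limma adjusted p 0.339). Its dimmest tested probe set had means of 593 in wild type and 433 in FIH null cells, against 359 in VHL null and 331 in VHL/FIH null cells. There the larger difference lay with VHL present. On its second brightest (6460 and 5258, against 4348 and 2931) it lay with VHL lost. For Sc5d the interaction was -0.58, from 0.15 and -0.43 (adjusted p 0.00144), and its second probe set gave 0.60 (adjusted p over probe sets 0.00811). For Srebf2 it was -0.54, from -0.02 and -0.56 (adjusted p 0.0042). Srebf1 had -0.38, from 0.24 and -0.14 (adjusted p 0.0212), and Stard4 -0.32, from 0.15 and -0.16 (adjusted p 0.0192). Mylip had 0.62, from 0.0045 and 0.62 (adjusted p 0.0425), and Npc2 0.33, from 0.01 and 0.34 (adjusted p 0.03). Groups of 2 arrays were too small to test for an array far from the others.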

How the results depend on the processing

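Of the 23 genes that fell in VHL null against wild type cells, 22 passed with median centring (Stard4 did not) and 22 without wild type replicate 2 (Mylip did not). Of the 20 that fell in VHL/FIH null against FIH null cells, 19 passed without FIH null replicate 2 or without VHL/FIH null replicate 1, where Tm7sf2 did not (adjusted p 0.13 and 0.0871), and in the second of these fits Npc2 passed instead (adjusted p 0.0337). In the other alternatives run, and in all of them for the 20 of VHL/FIH null against wild type cells, those measured kept the call; the 75th percentile filter left 21 of the 23 measured and 19 of each 20. Counts of falls with 1 array left out were 22 to 23 in VHL null and 20 to 21 in VHL/FIH null against wild type, and 19 to 20 in VHL/FIH null against FIH null cells. Scaling to the hybridization controls changed most, and under it 68.8% of all tested genes fell in VHL null and 74.6% in VHL/FIH null against wild type cells: in FIH null cells 19 genes fell and 0 rose, 1 rose in each of VHL null against wild type, VHL/FIH null against wild type and VHL/FIH null against FIH null cells, 16 fell in VHL/FIH null against VHL null cells, and 4 interactions were positive and 3 negative. Under it Mvk, Insig2 and Npc2 turned to -0.26, -0.21 and -0.25 in FIH null cells, and Scap, Insig2, Mylip and Npc1 to -0.39, -0.12, -0.48 and -0.32 in VHL/FIH null against wild type cells. This scaling moved the median of all genes by -0.26, -0.38 and -0.52 in the comparisons of FIH null, of VHL null and of VHL/FIH null with wild type cells, by -0.14 and -0.26 in VHL/FIH null against VHL null and FIH null cells, and by 0.11 in the interaction. The share of calls that were higher went in that order of comparisons from 29.9%, 35.3%, 43.0%, 59.1%, 45.2% and 61.4% to 1.37%, 5.13%, 5.55%, 31.6%, 16.1% and 80.8%, and with median centring to 71.2%, 49.1%, 55.3%, 57.0%, 41.2% and 40.4%. In FIH null cells, rises numbered 0 without a filter, with the 75th percentile filter and without a variance trend, 3 with median centring, 2 with only the compared groups and 0 to 1 with an array left out. Falls there numbered 1 with a pseudocount of 64, the 75th percentile filter, quantile normalization, no variance trend or the mean of probe sets, 3 with only the compared groups and 0 to 2 with an array left out. Positive interactions numbered 0 without a filter or with median centring, 1 with the 75th percentile filter, quantile normalization or no variance trend, and 0 to 1 with an array left out. Negative ones numbered 8 with median centring, 3 without a variance trend and 3 to 5 with an array left out. Of VHL/FIH null against VHL null cells, 7 to 10 fell and 2 to 3 rose with an array left out. Sc5d turned to 0.069 in that comparison with the mean of its probe sets. With the replicate number as a block, 2 genes rose in FIH null cells in place of 1, and counts in the other comparisons moved by at most 1. Of 3195 values of single genes under the alternatives, 1703 kept their call and sign, 81 lost the call, 60 gained one, 8 changed sign with a call on either side and 77 changed sign with none; the cause was not tested.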
